A study of Mus musculus with 18 samples.

Results

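The 10 genes described here are naive pluripotency factors: Esrrb, Nr0b1, Klf2, Klf4, Klf5, Tfcp2l1, Tbx3, Zfp42, Dppa5a and Tcl1. They were taken by name from a table of RNA-seq counts that lists 55385 genes, and all 10 were found and passed the filter on low counts, as did 16041 genes in all. Counts were followed over 18 libraries of mouse gastruloids, stem cell aggregates that lay down germ layers along an axis in the dish. All cells were wild type (WT) of the strain 129/SVEV, and the gastruloids of a condition were pooled in 1 tube before RNA extraction. Gastruloids received CHIR, which blocks the kinase GSK3 and so switches on Wnt/β-catenin signalling, in 1 of 2 windows after aggregation. In the Early arm the pulse ran from 24 to 48 h, and in the control arm (CTL) from 48 to 72 h. Each arm was sampled at 48, 72 and 96 h with 3 libraries per group, so that CTL gastruloids of 48 h were untreated, Early gastruloids of 48 h and CTL gastruloids of 72 h stood at the end of their pulse, and Early gastruloids of 72 h and CTL gastruloids of 96 h stood one day after it. The design asks how gene expression depends on when the Wnt pulse is given.

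Naive pluripotency is the state of the preimplantation epiblast and of embryonic stem cells, held in place by a set of transcription factors that bind each other's genes. In mouse stem cell culture it is maintained by the cytokine LIF, which acts through STAT3, and by inhibition of GSK3, which stabilises β-catenin and relieves repression of naive genes by Tcf7l1. When these signals are withdrawn the naive factors are shut down and formative and primed genes come on, a step that precedes germ layer formation in embryos and in gastruloids.

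Total counts per library ranged from 14841728 to 24536538. Levels within a gene are given in CPM (the count relative to the TMM-adjusted library size), levels between genes in FPKM as deposited, and differences as log2 fold changes ± SE. A gene was called higher or lower at an adjusted p under 0.05 in edgeR's quasi-likelihood test with Benjamini-Hochberg adjustment over all genes tested. Whether the libraries of a group are separate cultures is not in the labels, and the p-values therefore speak only for the variation among these samples, part or all of which may be technical. In bulk RNA, fewer cells with a transcript and less of the transcript per cell cannot be told apart. As a check of the tissue, Pou5f1 was at 1210 CPM or more in every library except the 3 of CTL at 96 h (474, 425 and 154 CPM), and Cdh1 was at 194 CPM or more in all 18. The streak markers T and Mixl1 were under 1 CPM in untreated CTL gastruloids of 48 h. In CTL, replicate 3 differed from both other libraries of its age: over genes, the chi-square of counts divided by its degrees of freedom was 15.4 to 28.1 in pairs with it and 1.41 to 7.90 in the remaining pairs within groups. Further, 6, 8 and 2 of the 10 factors were above both other CTL libraries in it at 48, 72 and 96 h, where 2, 2 and 5 were below both.

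The upstream windows of 5 of the factors are printed first, 4 for likeness over the libraries and that of Nr0b1 for its motif. Each pair of Esrrb, Zfp42, Klf2 and Tcl1 had a Pearson r of 0.909 or more in log2 CPM over 18 libraries. Over the control pulse they nevertheless split, with Esrrb and Klf2 called higher and Zfp42 and Tcl1 called lower. Nr0b1, with r of 0.933 to Zfp42 and 0.913 to Tcl1, holds the single match to the motif of the Wnt effectors. Each run is the 250 bases before the RefSeq start in build GRCm38.p6, read 5′ to 3′ on the gene's strand, and capitals mark the motif matches named after the sequences.
Esrrb, chr12:86360867-86361116, plus strand: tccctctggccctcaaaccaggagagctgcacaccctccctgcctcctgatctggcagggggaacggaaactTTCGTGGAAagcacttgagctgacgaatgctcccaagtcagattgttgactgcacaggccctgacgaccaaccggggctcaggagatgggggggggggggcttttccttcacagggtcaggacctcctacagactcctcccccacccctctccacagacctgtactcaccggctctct
Zfp42, chr8:43307010-43307259, minus strand: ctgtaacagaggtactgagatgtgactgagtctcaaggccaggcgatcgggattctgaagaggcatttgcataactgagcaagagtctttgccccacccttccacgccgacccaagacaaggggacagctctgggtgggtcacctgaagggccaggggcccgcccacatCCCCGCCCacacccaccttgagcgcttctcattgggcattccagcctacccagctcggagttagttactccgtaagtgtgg
Klf2, chr8:72318812-72319061, plus strand: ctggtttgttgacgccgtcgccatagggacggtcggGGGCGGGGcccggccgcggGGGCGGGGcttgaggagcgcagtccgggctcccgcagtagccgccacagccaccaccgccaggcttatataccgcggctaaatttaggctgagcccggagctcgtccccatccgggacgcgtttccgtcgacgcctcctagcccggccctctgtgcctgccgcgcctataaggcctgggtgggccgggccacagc
Tcl1, chr12:105222738-105222987, minus strand: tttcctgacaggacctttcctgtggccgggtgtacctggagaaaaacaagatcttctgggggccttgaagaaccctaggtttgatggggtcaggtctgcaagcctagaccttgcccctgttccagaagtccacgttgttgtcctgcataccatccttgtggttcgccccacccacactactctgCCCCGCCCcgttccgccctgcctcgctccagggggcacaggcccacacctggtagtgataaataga
Nr0b1, chrX:86191525-86191774, plus strand: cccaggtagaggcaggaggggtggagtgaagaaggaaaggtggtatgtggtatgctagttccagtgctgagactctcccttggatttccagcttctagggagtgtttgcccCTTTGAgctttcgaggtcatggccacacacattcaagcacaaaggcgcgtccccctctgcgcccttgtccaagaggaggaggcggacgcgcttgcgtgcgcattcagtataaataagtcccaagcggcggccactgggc

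RefSeq windows were found for 7 of the 10 factors, 8 windows in all, with a pair for Esrrb. Motifs were searched on both strands. The TCF/LEF core CTTTGA was in 1 of the 8 windows, that of Nr0b1, 139 bases before the start, and in 13.8% of all 32851 windows. The STAT palindrome TTCNNNGAA was in 1 of the 8, the Esrrb window printed above, 178 bases before the start, and in 7.0% of all windows. The KLF/SP box GGGCGGGG was in 4 of the 8, those of Zfp42, Klf2, Klf4 and Tcl1, and in 16.1% of all windows, with 2 matches in Klf2 and 4 in Klf4. The ESRRB half-site AAGGTCA was in 0 of the 8 and in 4.1% of all windows. These are matches of letters in a short window and describe no binding. Windows of Klf5, Tbx3 and Dppa5a were not used here.

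At 48 h, the end of the early pulse, each of the 10 factors was higher in Early than in untreated CTL gastruloids. Tbx3, Esrrb, Klf2 and Tfcp2l1 differed by 9.88-fold to 16.1-fold, Tcl1, Zfp42, Nr0b1 and Klf5 by 3.10-fold to 7.05-fold, and Klf4 and Dppa5a by 2.197-fold and 1.75-fold. The count of 10 of 10 called higher stands beside 23.0% of all genes tested. The median log2 fold change was 2.61 over the 10 factors and 0.02 over all genes. Of all genes called in this comparison 52.7% were higher on counts and 41.6% on log2(FPKM + 1).

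Of the nuclear receptors, Esrrb (chr12:86361117-86521628, plus strand, coordinates of GENCODE M21 on GRCm38), an orphan receptor that binds DNA at many naive genes, was at 197, 178 and 198 CPM in Early and at 13.8, 15.3 and 17.9 CPM in CTL libraries. No Early value came near a CTL value, and the difference was 3.62 ± 0.12 (adjusted p = 7.01e-14). Nr0b1 (chrX:86191764-86195947, plus strand), also called Dax1, is an orphan receptor that lacks the usual DNA-binding domain and acts as a corepressor. It was at 42.5, 40.2 and 42.0 CPM in Early and at 9.17, 11.5 and 11.2 CPM in CTL libraries. The groups lay well apart, with a difference of 1.97 ± 0.21 (adjusted p = 3.48e-07).

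Of the Krüppel-like zinc finger factors, which bind GC-rich DNA and can stand in for each other in stem cells, Klf2 (chr8:72319033-72321656, plus strand) was at 77.4, 67.0 and 89.2 CPM in Early and at 6.32, 7.62 and 7.63 CPM in CTL libraries. Its difference was 3.44 ± 0.19 (adjusted p = 6.82e-11), and the spread among Early libraries was small beside it. Klf5 (chr14:99298691-99315036, plus strand) was at 38.0, 31.3 and 35.4 CPM in Early and at 10.6, 11.5 and 11.7 CPM in CTL libraries (1.63 ± 0.26, adjusted p = 6.10e-05). Klf4 (chr4:55527143-55532466, minus strand), one of the factors used to reprogram somatic cells, was at 5.27, 3.50 and 5.55 CPM in Early and at 2.09, 2.38 and 2.05 CPM in CTL libraries (1.14 ± 0.19, adjusted p = 7.30e-05). Klf4 was low in both arms, and Early replicate 2 lay closer to the CTL libraries than its group did, but the groups did not overlap.

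Tfcp2l1 (chr1:118627945-118685168, plus strand), a CP2-family factor that sustains self-renewal downstream of LIF and of GSK3 inhibition, was at 73.6, 74.5 and 75.2 CPM in Early and at 7.74, 7.52 and 7.31 CPM in CTL libraries. The replicates of each arm were nearly equal, and the difference was 3.30 ± 0.10 (adjusted p = 2.63e-14). Tbx3 (chr5:119670669-119684724, plus strand), a T-box repressor that in mouse stem cells delays exit from the naive state, was at 26.9, 22.9 and 26.6 CPM in Early and at 1.48, 1.53 and 1.73 CPM in CTL libraries. At 4.01 ± 0.23 (adjusted p = 9.08e-11) its difference had the highest estimate of the 10, and its CTL values rested on 27 to 31 counts. Zfp42 (chr8:43295063-43306980, minus strand), the Rex1 zinc finger protein used as a marker of naive cells, was at 163, 159.5 and 161 CPM in Early and at 28.0, 31.6 and 32.3 CPM in CTL libraries (2.40 ± 0.08, adjusted p = 7.01e-14).

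The last pair are not transcription factors. Dppa5a (chr9:78367052-78368177, minus strand), an RNA-binding protein with a KH domain, was at 909.8, 929 and 883 CPM in Early and at 491, 511 and 556 CPM in CTL libraries (0.80 ± 0.09, adjusted p = 1.28e-06). It was abundant in both arms and had the lowest estimate of the 10 differences. Tcl1 (chr12:105216750-105222793, minus strand), a coactivator of the kinase Akt, was at 5.22, 4.24 and 5.89 CPM in Early and at 0.56, 0.891 and 0.705 CPM in CTL libraries (2.82 ± 0.23, adjusted p = 1.42e-08). Its CTL values rested on 11 to 18 counts.

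Per length, Dppa5a was the most abundant of the 10 in all 6 groups, at 1069 ± 21.6 FPKM in Early and 633 ± 50.1 FPKM in CTL at 48 h, and 475.5 ± 78.5 FPKM in Early and 62.7 ± 3.98 FPKM in CTL at 96 h (SD, n = 3 each). At 48 h Zfp42 came next with 60.5 ± 1.88 FPKM in Early and 11.9 ± 1.04 FPKM in CTL. The order then parted between the arms: Esrrb (33.9 FPKM), Klf2 (30.7) and Nr0b1 (16.9) followed in Early, and Nr0b1 (4.47 FPKM), Klf2 (2.89) and Esrrb (2.85) in CTL. The least abundant was Klf4 in Early, at 1.15 FPKM, and Tbx3 in CTL, at 0.249 FPKM.

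**Figure D1:**
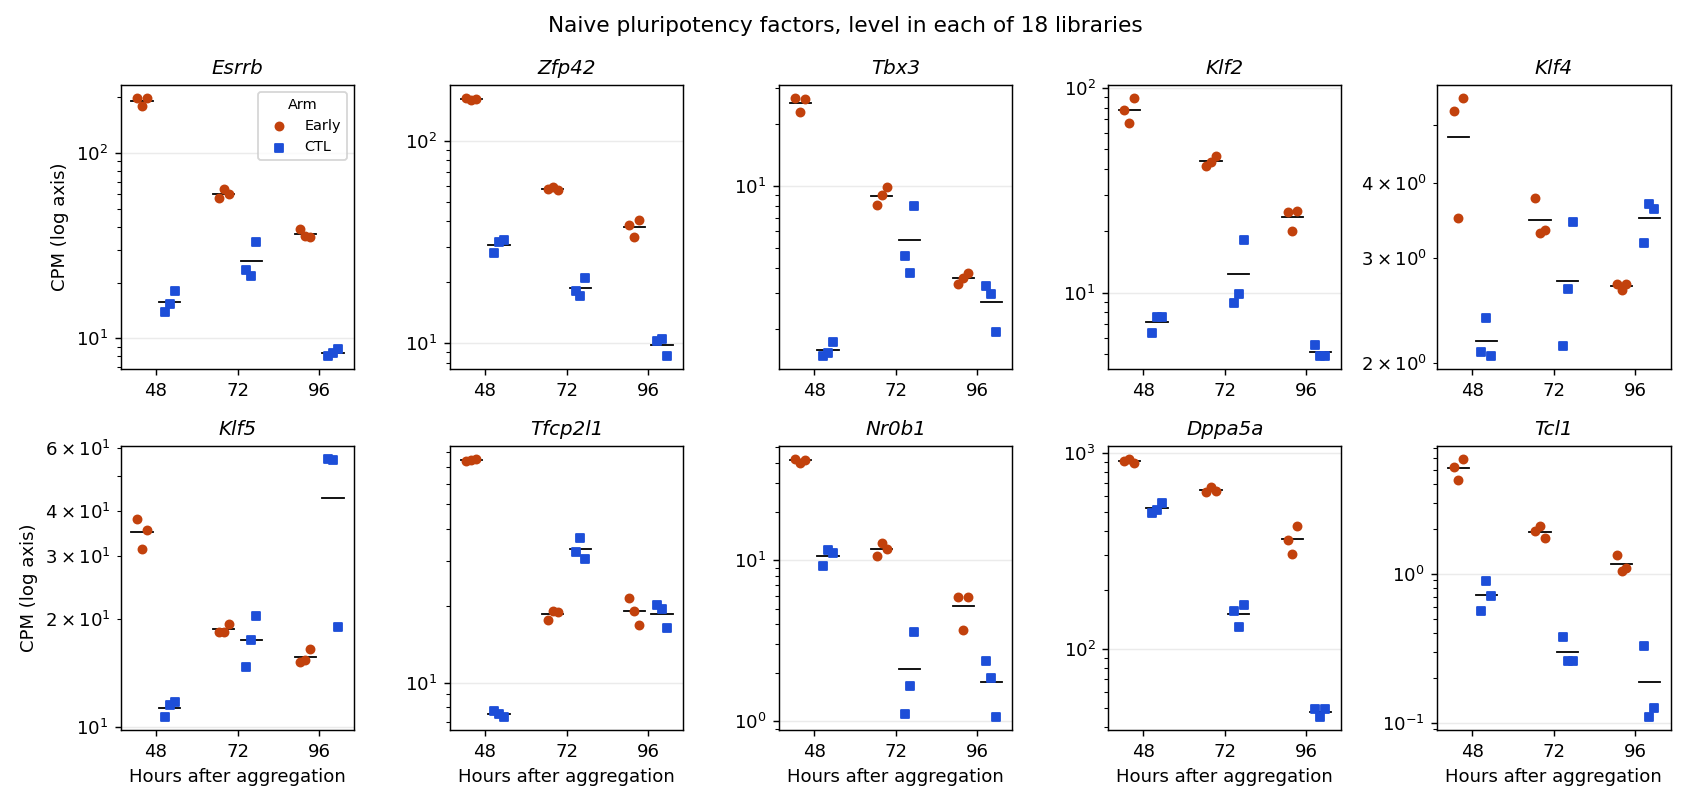
Level of each factor in CPM (log axis) against hours after aggregation, with 1 panel per gene, Early libraries as circles left of CTL libraries as squares, and the mean of each group as a line. Early 48 h is the highest group for 9 of the factors; for Klf5 the mean of CTL at 96 h is higher, with replicate 3 at 19.0 CPM far below replicates 1 and 2.

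Early gastruloids of 48 h also held each factor above CTL gastruloids of 72 h, the other group sampled at the end of a pulse, at 24 h greater age. Again 10 of 10 were called higher, against 29.5% of all genes, with a median of 2.64 over the factors and -0.02 over all genes. On counts 48.2% of all calls in this comparison were higher, and on log2(FPKM + 1) 32.3%. Nr0b1 had the highest estimate, at 42.5, 40.2 and 42.0 CPM in Early against 1.12, 1.67 and 3.57 CPM in CTL gastruloids (4.34 ± 0.25, adjusted p = 9.78e-11). The smallest were those of Klf4 (0.82 ± 0.18), Klf5 (1.01 ± 0.25) and Tfcp2l1 (1.16 ± 0.08).

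Over the control pulse itself the factors split. CTL at 72 h against CTL at 48 h gave 4 called higher (Esrrb, Tbx3, Klf2 and Tfcp2l1) and 4 called lower (Zfp42, Nr0b1, Dppa5a and Tcl1), where 31.1% of all genes were called higher and 30.3% lower. Klf4 (0.32 ± 0.20, adjusted p = 0.17) and Klf5 (0.63 ± 0.27, adjusted p = 0.0555) did not pass the test. For Klf5 the libraries of 72 h all lay above those of 48 h, and it was called higher in 7 of 28 alternatives, among them those without CTL replicate 1 of 72 h (adjusted p = 0.0478) and without CTL replicate 1, 2 or 3 of 96 h (adjusted p = 0.0432, 0.0465 and 1.73e-05), with adjusted p-values of 2.12e-08 to 0.16 over all alternatives. The median was 0.47 over the factors and 0.01 over all genes. This step and the comparison of arms at 48 h share the untreated CTL libraries of 48 h, and it also spans 24 h of further culture, which the early comparison does not.

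Tfcp2l1 had the largest rise of the step, at 32.4, 36.9 and 30.5 CPM at 72 h against 7.74, 7.52 and 7.31 CPM at 48 h (2.14 ± 0.10, adjusted p = 2.50e-12). The 2 ages did not overlap, and the level at 72 h was 44.7% of that at the end of the early pulse. Tbx3 was at 4.53, 3.75 and 7.99 CPM at 72 h against 1.48, 1.53 and 1.73 CPM at 48 h (1.76 ± 0.25, adjusted p = 7.18e-06). Replicate 3 was the highest of its group at 72 h for Tbx3, and likewise for Esrrb (23.4, 21.7 and 33.2 CPM at 72 h against 13.8, 15.3 and 17.9 CPM at 48 h, 0.73 ± 0.12, adjusted p = 4.97e-05). Klf2 was at 8.85, 9.80 and 18.1 CPM at 72 h against 6.32, 7.62 and 7.63 CPM at 48 h (0.75 ± 0.21, adjusted p = 0.00413). Without CTL replicate 3 of 72 h the difference was 0.38 for Klf2 (adjusted p = 0.0346), 1.40 for Tbx3 and 0.53 for Esrrb.

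Of the factors that fell over the control pulse, Nr0b1 was at 1.12, 1.67 and 3.57 CPM at 72 h against 9.17, 11.5 and 11.2 CPM at 48 h (-2.37 ± 0.27, adjusted p = 4.91e-07). Its level at 72 h was 5.1% of that at the end of the early pulse. Dppa5a was at 155, 129 and 167 CPM at 72 h against 491, 511 and 556 CPM at 48 h (-1.79 ± 0.10, adjusted p = 2.34e-11). Zfp42 was at 18.2, 17.1 and 20.9 CPM at 72 h against 28.0, 31.6 and 32.3 CPM at 48 h (-0.71 ± 0.09, adjusted p = 8.88e-07). For these 3 genes all libraries of 72 h lay below all libraries of 48 h, and the same held for Tcl1, which rested on 4 to 7 counts at 72 h and 11 to 18 at 48 h (-1.25 ± 0.35, adjusted p = 0.00495). The Tcl1 call was lost on log2(FPKM + 1), with and without the filter (-0.22, adjusted p = 0.0754 and 0.128), of 27 alternatives whose adjusted p ran from 0.0038 to 0.128.

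**Figure D2:**
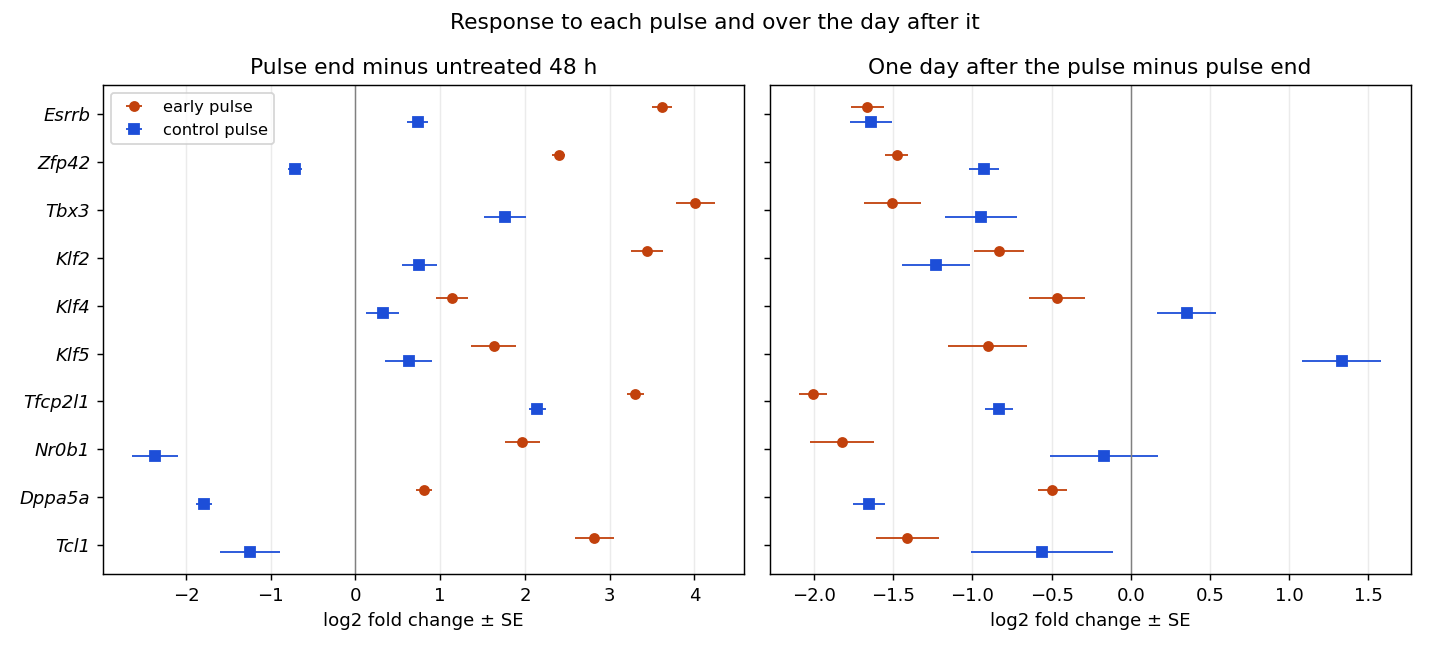
Log2 fold change ± SE (edgeR) of each factor at the end of each pulse against untreated CTL gastruloids of 48 h (left) and over the day after the pulse (right), circles for the early and squares for the control pulse. On the left all 10 circles lie right of 0, while the squares of Zfp42, Nr0b1, Dppa5a and Tcl1 lie left of it.

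Markers of the pulse were higher at the end of both pulses. The 7 Wnt feedback genes listed were all called higher at 48 h in Early against CTL (23.0% of all genes) and all called higher in CTL at 72 h against CTL at 48 h (31.1%). Their summed level was 203 to 218 CPM in Early at 48 h, 384 to 437 CPM in CTL at 72 h and 54.2 to 56.3 CPM in CTL at 48 h, in the libraries of each group. Axin2, a feedback inhibitor of Wnt signalling, was at 119, 117 and 124.5 CPM in Early at 48 h, 215, 233.5 and 196 CPM in CTL at 72 h and 12.02, 12.3 and 13.7 CPM in untreated CTL libraries. Over the day after the pulse the arms went different ways. The sum was 143 to 147 CPM in Early at 72 h, where 4 of the 7 genes were called lower than at 48 h (21.9% of all genes), and 547 to 605 CPM in CTL at 96 h, where 4 were called higher and 1 lower than at 72 h (27.5% and 27.4%). Axin2 changed by -0.57 ± 0.06 (adjusted p = 1.08e-06) in the Early and by 0.31 ± 0.06 (adjusted p = 2.19e-04) in the CTL arm. Their part in the levels of the naive factors, also in the comparisons of the day after the pulse, was not tested. Of the TCF and LEF factors and β-catenin, Tcf7l1, the repressor of naive genes, was at 122, 122 and 130.3 CPM in Early at 48 h, 45.6, 38.6 and 35.6 CPM in CTL at 72 h and 188, 186.5 and 149.9 CPM in CTL at 48 h. It was called lower at the end of both pulses, at -0.49 ± 0.14 (adjusted p = 0.00723) for the early and -2.13 ± 0.15 (adjusted p = 6.28e-10) for the control pulse.

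At 72 h, when Early gastruloids were one day past their pulse and CTL gastruloids at the end of theirs, 7 of the 10 factors were called higher in Early, against 21.7% of all genes, and 1 was called lower, against 23.2%. The median was 1.43 over the factors and -0.02 over all genes. Nr0b1, Dppa5a and Tcl1, the genes that had fallen over the control pulse with Zfp42, had the highest estimates. Both comparisons use the CTL libraries of 72 h with opposite sign, so a low level in those libraries enters both results. Nr0b1 was at 10.6, 12.7 and 11.8 CPM in Early and 1.12, 1.67 and 3.57 CPM in CTL libraries (2.51 ± 0.27, adjusted p = 5.98e-07), and CTL replicate 3 was the nearest to the Early group. Dppa5a was at 629.9, 664 and 637 CPM in Early and 155, 129 and 167 CPM in CTL libraries (2.10 ± 0.10, adjusted p = 1.73e-11). Zfp42 was at 57.8, 59.0 and 57.0 CPM in Early and 18.2, 17.1 and 20.9 CPM in CTL libraries (1.63 ± 0.08, adjusted p = 4.62e-11). Early libraries were above all CTL libraries for each of these genes and for Tcl1 (2.66 ± 0.30, adjusted p = 1.13e-06).

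Tfcp2l1 went the other way at 72 h. It was at 17.6, 19.1 and 18.9 CPM in Early and 32.4, 36.9 and 30.5 CPM in CTL libraries, and all Early values lay below all CTL values (-0.85 ± 0.09, adjusted p = 5.35e-07). Klf2 (1.86 ± 0.18), Esrrb (1.22 ± 0.11) and Tbx3 (0.75 ± 0.20, adjusted p = 0.00536) were higher in Early. Without CTL replicate 3 of 72 h their differences were larger, at 2.23, 1.42 and 1.11. Klf4 was at 3.77, 3.30 and 3.34 CPM in Early and 2.13, 2.66 and 3.44 CPM in CTL libraries, overlapping groups that did not pass the test (0.35 ± 0.19, adjusted p = 0.139). Klf5 was at 18.4, 18.4 and 19.4 CPM in Early and 14.7, 17.5 and 20.3 CPM in CTL libraries (0.10 ± 0.26, adjusted p = 0.778). Without CTL replicate 3 of 72 h Klf4 passed the test (0.53, adjusted p = 0.0375), with adjusted p-values of 0.0254 to 0.446 over all alternatives, and without the 3 CTL libraries numbered 3 Klf5 passed as well (0.23, adjusted p = 0.0381, with 0.0381 to 1.0 over all alternatives).

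At 96 h, 6 of the 10 were called higher in Early, against 29.5% of all genes, and 1 lower, against 29.6%. The median was 1.71 over the factors and -0.01 over all genes. Dppa5a had the highest estimate, at 360.0, 303 and 421 CPM in Early and 49.1, 44.6 and 49.4 CPM in CTL libraries (2.92 ± 0.10, adjusted p = 1.07e-13). Esrrb was at 39.0, 35.7 and 35.3 CPM in Early and 8.01, 8.31 and 8.73 CPM in CTL libraries (2.14 ± 0.13, adjusted p = 1.54e-10). Klf2 was at 24.8, 20.03 and 25.1 CPM in Early and 5.53, 4.89 and 4.93 CPM in CTL libraries (2.17 ± 0.20, adjusted p = 4.49e-08). In all 3 genes, and in Zfp42 (1.93 ± 0.09), Nr0b1 (1.49 ± 0.29) and Tcl1 (2.48 ± 0.34), the arms did not overlap. The Tcl1 difference rested on 19 to 24 counts in Early and 2 to 8 in CTL libraries, and without CTL replicate 1 of 96 h it was 3.24.

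Klf5 was the factor called lower in Early at 96 h, at 15.2, 15.4 and 16.5 CPM in Early and 56.0, 55.6 and 19.0 CPM in CTL libraries (-1.48 ± 0.25, adjusted p = 5.97e-05). The Early libraries lay below all 3 CTL libraries, but CTL replicate 3 was close to them. Without that library the difference was -1.82 (adjusted p = 5.18e-13, with 1.08e-50 to 0.0104 over all alternatives). The arms also differed in mesoderm markers at 96 h: the 6 genes listed summed to between 1.21 and 1.88 CPM in Early and between 154.5 and 501 CPM in CTL libraries. Their part in the Klf5 level was not tested. Tbx3 (0.35 ± 0.24), Klf4 (-0.37 ± 0.19) and Tfcp2l1 (0.03 ± 0.09) did not pass the test at 96 h. For Tbx3 all Early libraries lay above, and for Klf4 all below, the CTL libraries, while for Tfcp2l1 the arms overlapped.

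**Figure D3:**
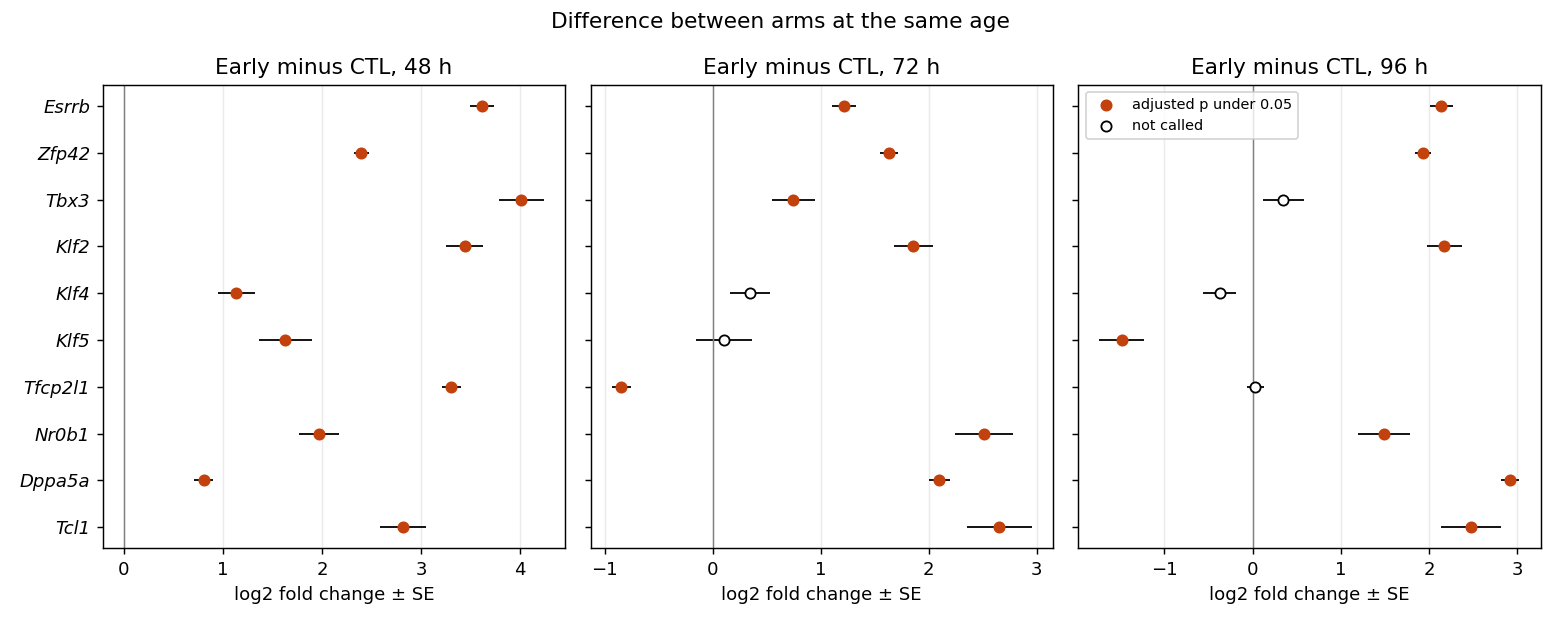
Log2 fold change ± SE (edgeR) of Early against CTL gastruloids of the same age, 1 panel per age, with filled points for an adjusted p under 0.05 and open points for factors not called. All points lie right of 0 at 48 h, Tfcp2l1 lies left of it at 72 h, and Klf5 and, not called, Klf4 lie left of it at 96 h.

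Aligned to the pulse, one day after it, Early gastruloids of 72 h held 7 of the 10 factors above CTL gastruloids of 96 h, against 34.3% of all genes, and 1 below them, against 35.4%. The median was 2.62 over the factors and -0.01 over all genes. The estimates were largest for Dppa5a (3.75 ± 0.11), Tcl1 (3.22 ± 0.31), Klf2 (3.09 ± 0.20) and Esrrb (2.86 ± 0.13), and for Nr0b1 (2.68 ± 0.27), Zfp42 (2.56 ± 0.09) and Tbx3 (1.69 ± 0.21) the arms were likewise apart. Klf5 was the factor called lower (-1.23 ± 0.25, adjusted p = 2.26e-04), though CTL replicate 3 of 96 h lay within the range of the Early libraries, and it was at -1.57 without that library. Klf4 (-0.004 ± 0.18, adjusted p = 0.984) and Tfcp2l1 (-0.02 ± 0.09, adjusted p = 0.89) did not pass the test. Without CTL replicate 1 of 96 h the Tcl1 difference was 3.98.

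One day after the early pulse 9 of the factors, all but Nr0b1, were above their level in untreated gastruloids that were 24 h younger. Early at 72 h against CTL at 48 h gave 9 of 10 called higher, against 21.2% of all genes, with a median of 1.11 over the factors and 0.01 over all genes. On counts 51.9% of all calls were higher and on log2(FPKM + 0.1) 63.1%. Klf2 (2.61 ± 0.19), Tbx3 (2.51 ± 0.24) and Esrrb (1.95 ± 0.12) had the highest estimates. Nr0b1, at 10.6, 12.7 and 11.8 CPM in Early at 72 h and 9.17, 11.5 and 11.2 CPM in CTL at 48 h, overlapped and did not pass the test (0.15 ± 0.21, adjusted p = 0.625). The smallest called differences, Dppa5a (0.31 ± 0.09, adjusted p = 0.0123) and Klf5 (0.73 ± 0.27, adjusted p = 0.0383), were lost in some alternatives: Dppa5a without CTL replicate 1 of 48 h (adjusted p = 0.0565), and Klf5 without any 1 library of either group (adjusted p up to 0.105) and on FPKM.

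In the day after the early pulse all 10 factors fell. Early at 72 h against Early at 48 h gave 10 of 10 called lower, against 21.9% of all genes, with a median of -1.44 over the factors and 0.00 over all genes. On counts 48.7% of all calls in this step were higher and on log2(FPKM + 1) 70.1%. Tfcp2l1 fell furthest, to 17.6, 19.1 and 18.9 CPM at 72 h, against 73.6, 74.5 and 75.2 CPM at 48 h (-2.01 ± 0.09, adjusted p = 1.10e-10), and kept 24.9% of its level. Nr0b1 kept 28.2%, Esrrb 31.6%, Tbx3 35.3%, Zfp42 35.9%, Tcl1 37.4%, Klf5 53.6%, Klf2 56.3%, Dppa5a 71.0% and Klf4 72.7%. These are shares of the whole level at 48 h, and the level of untreated gastruloids was not subtracted. Klf4 was at 3.77, 3.30 and 3.34 CPM at 72 h and 5.27, 3.50 and 5.55 CPM at 48 h, so the ages overlapped. Its call (-0.47 ± 0.18, adjusted p = 0.0394) was lost in 14 of 28 alternatives, with adjusted p-values up to 0.334, among them each fit without 1 library of Early at 72 h and those without replicate 1 or 3 of Early at 48 h. Klf5 lost its call (-0.90 ± 0.25, adjusted p = 0.00713) on FPKM in 3 alternatives, with adjusted p-values up to 0.0878.

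From 72 to 96 h in the Early arm 7 of 10 fell further, against 17.6% of all genes called lower, with a median of -0.73 over the factors and 0.01 over all genes. On counts 50% of all calls were higher and on log2(FPKM + 1) 65.1%. Tbx3 fell to 3.32, 3.55 and 3.75 CPM at 96 h, against 8.04, 9.003 and 9.89 CPM at 72 h (-1.34 ± 0.21, adjusted p = 8.44e-05). Nr0b1 fell to 5.91, 3.69 and 5.89 CPM at 96 h, against 10.6, 12.7 and 11.8 CPM at 72 h (-1.19 ± 0.23, adjusted p = 6.14e-04). Klf4 (-0.37 ± 0.19), Klf5 (-0.25 ± 0.26) and Tfcp2l1 (0.05 ± 0.09) did not pass the test, and for Tfcp2l1 the ages overlapped. The Tcl1 call (-0.74 ± 0.23, adjusted p = 0.019) rested on 19 to 24 counts at 96 h and was lost without replicate 2 of 72 h or replicate 2 or 3 of 96 h (adjusted p up to 0.0772) and in 2 of the FPKM alternatives (adjusted p up to 0.127).

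In the day after the control pulse 6 of the 10 fell, against 27.4% of all genes called lower, and 1 was higher, against 27.5%. The median was -0.88 over the factors and -0.01 over all genes. Esrrb was at 8.01, 8.31 and 8.73 CPM at 96 h against 23.4, 21.7 and 33.2 CPM at 72 h (-1.64 ± 0.13, adjusted p = 9.81e-09), and Dppa5a fell by a like amount (-1.65 ± 0.10). Klf2 (-1.23 ± 0.22), Tbx3 (-0.94 ± 0.23), Zfp42 (-0.93 ± 0.10) and Tfcp2l1 (-0.83 ± 0.09) were also lower, with the ages apart. The Tbx3 difference was -0.58 without CTL replicate 3 of 72 h, and it did not pass the test without the 3 CTL libraries numbered 3 (-0.39, adjusted p = 0.0584, with 6.00e-07 to 0.0584 over all alternatives). Klf5 was called higher (1.33 ± 0.25, adjusted p = 2.00e-04) with replicates 1 and 2 at 56.0 and 55.6 CPM and replicate 3 at 19.0 CPM at 96 h, inside the range of 14.7, 17.5 and 20.3 CPM at 72 h. Nr0b1 (-0.17 ± 0.34), Tcl1 (-0.56 ± 0.45) and Klf4 (0.35 ± 0.19) did not pass the test, and Klf4 passed it as higher without CTL replicate 3 of 72 h (0.53, adjusted p = 0.0317, with 0.0317 to 0.418 over all alternatives).

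The day after the pulse was compared between the arms by an interaction, the step of the Early arm from 48 to 72 h minus the step of the CTL arm from 72 to 96 h. It was called lower for 5 factors, against 21.7% of all genes, and higher for 1, against 22.8%. On counts 51.2% of all calls were higher and on log2(FPKM + 0.1) 63.1%. Klf5 had the most negative value (-2.23 ± 0.35, adjusted p = 5.46e-05), since it fell in the Early arm and was higher in the CTL arm. Nr0b1 (-1.66 ± 0.40), Tfcp2l1 (-1.18 ± 0.12), Klf4 (-0.82 ± 0.26, adjusted p = 0.0146) and Zfp42 (-0.55 ± 0.12) had a more negative step after the early than after the control pulse. Dppa5a fell less after the early one (1.16 ± 0.14, adjusted p = 2.05e-06). For Nr0b1 the CTL libraries held only 21 to 55 counts at 72 h and 17 to 58 at 96 h. Its CTL step was -0.17 ± 0.34 and was not called. The Klf4 call was lost in 4 of 28 alternatives, those on FPKM and that without CTL replicate 1 of 72 h (-0.66, adjusted p = 0.0507), with adjusted p-values of 0.00263 to 0.117 over all alternatives. The interaction of Esrrb (-0.02 ± 0.18) did not pass the test: its steps were -1.66 ± 0.10 after the early and -1.64 ± 0.13 after the control pulse. Klf2, Tbx3 and Tcl1 did not pass either, and Tbx3 passed as lower without CTL replicate 3 of 72 h (-0.93, adjusted p = 0.00258) or of 96 h (-0.74, adjusted p = 0.0298), with adjusted p-values of 5.03e-05 to 0.349 over all alternatives.

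The difference between arms at 72 h minus that at 48 h was called lower for 7 factors, against 23.6% of all genes, and higher for 1, against 22.8%. It was largest for Tfcp2l1 (-4.15 ± 0.13, adjusted p = 4.75e-14), which was higher in Early at 48 h and lower at 72 h. Tbx3 (-3.27 ± 0.31), Esrrb (-2.40 ± 0.16), Klf2 (-1.58 ± 0.26), Klf5 (-1.53 ± 0.37), Klf4 (-0.79 ± 0.27) and Zfp42 (-0.77 ± 0.11) followed. Dppa5a was the factor whose difference grew (1.30 ± 0.13, adjusted p = 2.88e-07). Nr0b1 (0.54 ± 0.34, adjusted p = 0.212) and Tcl1 (-0.16 ± 0.47, adjusted p = 0.823) did not pass the test. Without CTL replicate 3 of 72 h Nr0b1 was called (1.09, adjusted p = 0.00782) and Klf4 was not (-0.60, adjusted p = 0.0715). Over all alternatives the adjusted p ran from 0.00145 to 1.0 for Nr0b1 and from 0.00351 to 0.112 for Klf4.

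Across the 6 groups the order of levels differed between genes. In Esrrb, Klf2 and Tcl1 the 3 Early groups came first, in the order 48, 72 and 96 h, and each of those groups lay above the next without overlap. Zfp42 had the same order, with Early at 96 h (38.6, 33.5 and 40.7 CPM) above CTL at 48 h (28.0, 31.6 and 32.3 CPM). In Dppa5a and Nr0b1 untreated CTL gastruloids of 48 h came before Early gastruloids of 96 h, and for Nr0b1 they overlapped with Early gastruloids of 72 h. In Tfcp2l1, Tbx3, Klf4 and Klf5 CTL gastruloids of 48 h came last. The Tfcp2l1 groups of Early at 96 h, CTL at 96 h and Early at 72 h overlapped, with means of 19.1, 18.6 and 18.5 CPM. Klf4 stayed between 2.05 and 5.55 CPM in all 18 libraries, and neighbouring groups in its order overlapped except Early at 96 h and CTL at 48 h.

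Over the 18 libraries the 45 pairs of factors had a median Pearson r of 0.70 in log2 CPM, from -0.31 to 0.98. The libraries fall into 6 groups and share age and arm, so these values describe the groups more than independent samples. Zfp42 with Tcl1 (0.98), Esrrb with Klf2 (0.97) and Esrrb with Zfp42 (0.95) were among the 10 pairs over 0.90. Zfp42 had the highest median with the other factors (0.91) and Klf5 the lowest (0.16). Klf5 ran most against Dppa5a (-0.31) and closest to Klf4 (0.72).

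**Figure D4:**
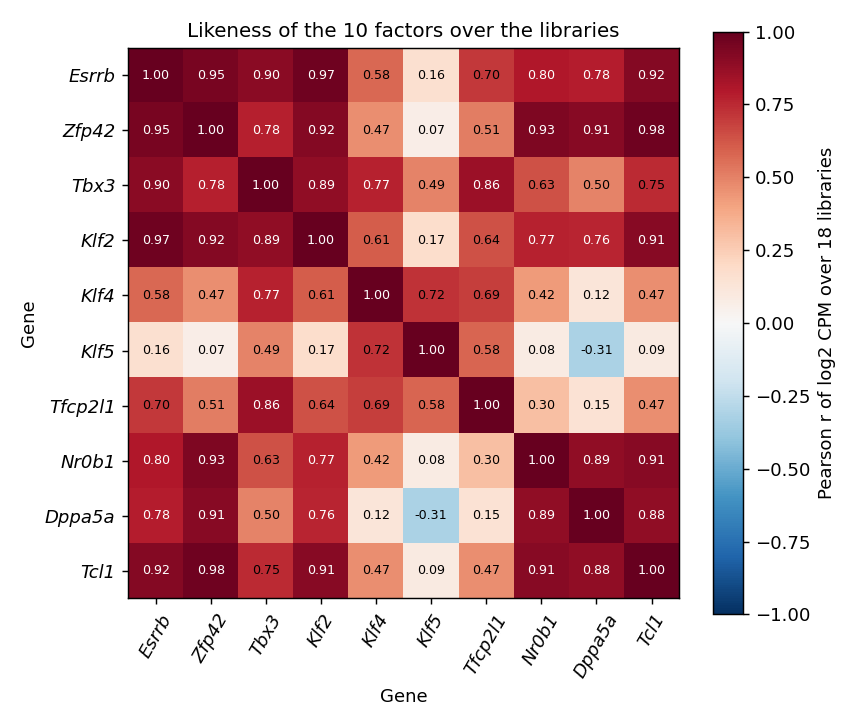
Pearson r of log2 CPM over 18 libraries for each pair of factors, on a scale of colour from -1 to 1. Zfp42, Esrrb, Klf2 and Tcl1 form a block of high values, while the row of Klf5 is pale except at Klf4, Tfcp2l1 and Tbx3.

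Among 11655 genes with a mean of at least 5 CPM in 1 group or more, the one most like each factor by the same measure over 18 libraries was Manba for Zfp42 (0.997), Tdrd12 for Dppa5a (0.99), Dnah8 for Esrrb (0.989), Nmnat2 for Klf2 (0.985), Myh13 for Tbx3 (0.984), Zfp42-ps1 for Tcl1 (0.981), Hsd17b14 for Nr0b1 (0.977), Epb41l4a for Klf5 (0.963), Itch for Tfcp2l1 (0.961) and Lamc1 for Klf4 (0.88). Triml2 and Triml1 came next for Nr0b1, both at 0.974. Zfp42-ps1, a pseudogene that could share reads with Zfp42, had r of 0.991 to Zfp42, and Zfp42 itself had 0.976 to Tcl1. Whether the likeness of Zfp42-ps1 to Tcl1 is separate from that of Zfp42 was not tested.

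Of 12 other pluripotency genes listed, 6 were higher and 1 lower in Early at 48 h, 9 higher and 2 lower at 72 h, and 8 higher and 2 lower at 96 h, with medians of 1.00, 1.93 and 1.71. Of all genes 23.0% were higher and 20.7% lower at 48 h, 21.7% and 23.2% at 72 h, and 29.5% and 29.6% at 96 h. At 48 h Nanog, the homeobox factor of the naive core, was at 210.4, 218 and 204 CPM in Early and 39.2, 40.1 and 49.75 CPM in CTL libraries (2.30 ± 0.12, adjusted p = 3.78e-11), and Nr5a2, a nuclear receptor that binds near Pou5f1, differed by 3.24 ± 0.14 (adjusted p = 3.28e-12). Prdm14, a repressor of FGF signalling in naive cells, differed by 3.87 ± 0.39 (adjusted p = 2.22e-07). The general factors Pou5f1 (0.06 ± 0.22) and Sox2 (0.34 ± 0.22) did not pass the test, and Fgf4, whose signal drives exit from the naive state, was lower (-1.10 ± 0.09, adjusted p = 2.29e-08). The direction of Fgf4 changed with age: it was higher in Early at 72 h (3.92 ± 0.12, adjusted p = 1.06e-13). At 96 h Fgf4 was again lower in Early (-0.99 ± 0.10, adjusted p = 1.17e-07). Gbx2 was lower in Early at 72 h (-3.055 ± 0.30, adjusted p = 2.62e-07) and at 96 h (-3.57 ± 0.29, adjusted p = 7.32e-09). Nanog was called higher over the control pulse too (2.80 ± 0.12). It was lower in Early at 72 h (-0.52 ± 0.11, adjusted p = 9.16e-04), and Tfcp2l1 had the same directions in these comparisons. At 96 h they parted: Nanog was higher in Early (3.91 ± 0.13, adjusted p = 5.84e-14) and Tfcp2l1 was not called (0.03 ± 0.09).

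In the LIF and STAT3 pathway 6 of 10 genes were higher and 2 lower in Early at 48 h, against 23.0% and 20.7% of all genes, with a median of 0.45. The receptor chain Lifr was at 35.5, 35.6 and 34.3 CPM in Early and 19.4, 18.3 and 18.1 CPM in CTL libraries (0.92 ± 0.08, adjusted p = 3.38e-08), and the shared chain Il6st differed by 1.60 ± 0.07 (adjusted p = 6.94e-12). Socs3, a feedback inhibitor induced by STAT3, differed by 1.497 ± 0.26 (adjusted p = 1.44e-04), while Stat3 itself did not pass the test (0.13 ± 0.10, adjusted p = 0.315). Over the control pulse 5 were higher and 4 lower, against 31.1% and 30.3% of all genes, with Socs3 higher (2.15 ± 0.25) and Lifr lower (-0.74 ± 0.09). Of 12 tested relatives of the Klf, Esrr and Tfcp2 families, 7 were higher and 1, Klf7, was lower in Early at 48 h, against the same 23.0% and 20.7%, with a median of 0.23. Their differences were smaller than those of Klf2, Esrrb and Tfcp2l1, from -0.99 ± 0.09 for Klf7 to 0.77 ± 0.19 for Grhl3.

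The formative epiblast genes, which replace the naive factors on exit, ran the other way at 48 h: 9 of 10 were lower and 1, Lef1, was higher in Early, against 20.7% and 23.0% of all genes, with a median of -1.27. Their summed level was 2918 to 2993 CPM in Early and 7040 to 7413 CPM in CTL libraries at 48 h. Pou3f1 (-2.96 ± 0.09, adjusted p = 5.23e-14) and Dnmt3b, a de novo DNA methyltransferase (-1.49 ± 0.07, adjusted p = 5.79e-12), were among the lower ones. At 72 and 96 h 8 of 10 were higher and 1 lower in Early, against 21.7% and 23.2% of all genes at 72 h and 29.5% and 29.6% at 96 h. Markers of other cells were mixed at 48 h. Definitive endoderm markers summed to 1096 to 1170 CPM in Early and 309 to 318 CPM in CTL libraries, and Trh, a hormone precursor, made up most of the Early sum, at 917, 945 and 985 CPM in Early and 46.55, 45.6 and 61.3 CPM in CTL libraries (4.22 ± 0.22, adjusted p = 2.94e-11). Epcam was lower (-0.53 ± 0.10, adjusted p = 3.17e-04), and Sox17, Foxa2, Foxa1, Cer1 and Cxcr4, which were under 1 CPM on average in both arms, were not called. Extraembryonic endoderm markers summed to 10.4 to 22.3 CPM in Early and 17.0 to 18.8 CPM in CTL libraries, and 3 of the 7 that were tested, of 8 listed, were called higher. Their part in the levels of the naive factors was not tested.

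Some reads could be shared with other genes, since the handling of reads on several loci is not given in the sources used here. Zfp42-ps1, a processed pseudogene, matched a Zfp42 transcript at 98.1% over 266 bases and held up to 281 counts, at most 12% of the Zfp42 count of the same library. Its mean was 13.7 CPM in Early and 2.58 CPM in CTL at 48 h, so it moved with Zfp42 and its level is uncertain. A Pigp transcript matched Dppa5a at 95.9% over 417 bases and held up to 644 counts. Pigp was at 24.0 to 26.2 CPM in CTL at 96 h, where Dppa5a was at 44.6 to 49.4 CPM, and its count reached 56.9% of that of Dppa5a in 1 library. Between arms at 48 h Pigp, at 9.86 CPM in Early and 11.3 CPM in CTL, did not move as Dppa5a did. Tfcp2l1, whose exons cover 9438 bases, had expressed matches of lower identity. A Psma3 transcript matched it at 90.2% over 193 bases and held up to 5151 counts. Slc7a14 matched it at 92.4% over 183 bases and held up to 97 counts. Sharing of reads was not tested.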

How the data were processed

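Polyadenylated RNA of pooled gastruloids was sequenced, per the labels' protocols. The authors deposited whole-number counts per gene and FPKM values for the same 18 libraries. The submitters' processing notes name cutadapt 4.0, STAR 2.7.8a, Cufflinks 2.2.1 and build mm10. The counting settings, strand included, were not given in the sources used here. Total counts of 14841728 to 24536538 per library limit precision for low genes such as Tcl1.

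Counts were fitted in edgeR 4.0.16 (R 4.3.3) over all 6 groups with TMM scaling and the default expression filter (16041 genes). Contrasts were tested by the quasi-likelihood F test, adjusted by Benjamini-Hochberg over all genes and called under 0.05. The SE is the log2 fold change divided by the square root of F. The procedure was tested on simulated data. Alternatives were DESeq2 1.42.0 (test and size factors), other filters on low counts, limma 3.58.1 on log2(FPKM + 1 or 0.1), a replicate block, the groups compared alone, and leaving out libraries. Correlations used log2 CPM with a prior count of 2. Transcript copies were searched with GENCODE M21.

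Counts of calls cover all 10 factors in each comparison. In some comparisons only part of the factors are printed with values, such as those of highest or smallest estimate. From other lists only some genes are named, and these are not always the genes of lowest adjusted p. Some of them were chosen after their values were seen. For likeness the 3 genes of highest r were taken for each factor, and those nearest are printed. The factors and lists were chosen with earlier results of these data known. Replicate numbers were not treated as pairs, since deviations of same-numbered libraries correlated weakly between arms and within them. The highest value was 0.158, for replicate 3 of CTL at 48 and 72 h.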

Additional observations from a re-analysis of the deposited data

Results flagged for a closer look

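The step over the day after the pulse differed between the arms (step of the Early arm from 48 to 72 h minus step of the CTL arm from 72 to 96 h, edgeR interaction on the log2 scale) for 6 factors. The values were -2.23 for Klf5, -1.66 for Nr0b1, -1.18 for Tfcp2l1, -0.82 for Klf4, -0.55 for Zfp42 and 1.16 for Dppa5a. The Klf5 value rests on CTL libraries of 96 h that disagree, with replicate 3 near the level of 72 h. For Nr0b1 the CTL libraries held only 21 to 55 counts at 72 h and 17 to 58 at 96 h. The Klf4 value was not called in 4 of 28 alternatives. The arms are 24 h apart in age in this comparison, so age and time of the pulse cannot be told apart.

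The difference between arms changed from 48 to 72 h (difference at 72 h minus difference at 48 h, edgeR interaction) for 8 factors. The values were -4.15 for Tfcp2l1, -3.27 for Tbx3, -2.40 for Esrrb, -1.58 for Klf2, -1.53 for Klf5, -0.79 for Klf4, -0.77 for Zfp42 and 1.30 for Dppa5a. Klf4 is at a few CPM in all groups, and its value was not called in 7 of 28 alternatives. Ages are matched here, but at 72 h Early gastruloids are 24 h past their pulse and CTL gastruloids at the end of theirs. Each value is the step of the Early arm minus that of the CTL arm, both from 48 to 72 h. In that order the steps were -2.01 and 2.14 for Tfcp2l1, -1.51 and 1.76 for Tbx3, and -1.66 and 0.73 for Esrrb. They were -0.83 and 0.75 for Klf2, -0.90 and 0.63 for Klf5, and -0.47 and 0.32 for Klf4. Zfp42 had -1.48 and -0.71, and Dppa5a -0.495 and -1.79. The CTL steps of Klf5 and Klf4 were not called. The CTL step spans the pulse and 24 h of culture together.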

How the results depend on the processing

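Over 28 alternatives and 12 contrasts, 0 of the 98 called values changed sign, and the number of factors called stayed within 1.5 times that reported in each contrast. At least 1 alternative ended the call of 9 values and made a call of 10 others. Values that were not called changed sign in places. Without the 3 CTL libraries numbered 3, Early minus CTL at 96 h was -0.041 for Tfcp2l1, Early 72 h minus CTL 96 h was 0.032 for Klf4 and CTL 96 h minus CTL 72 h was 0.62 for Nr0b1. Early 72 h minus CTL 96 h was 0.007 for Klf4 with no filter and, fitted on the groups compared alone, 0.008 for Klf4 and 0.002 for Tfcp2l1. The change of the difference from 48 to 72 h was -0.035 for Nr0b1 on log2(FPKM + 1), with and without the filter. The cause was not tested. Leaving out 1 library gave ranges of -0.004 to 0.218 for Klf5 (Early minus CTL at 72 h), -0.048 to 0.119 for Tfcp2l1 (at 96 h), -0.072 to 0.042 for Klf4 and -0.092 to 0.052 for Tfcp2l1 (Early 72 h minus CTL 96 h), -0.481 to 0.379 for Nr0b1 (CTL 96 h minus CTL 72 h), -0.037 to 0.123 for Tfcp2l1 (Early 96 h minus Early 72 h), -0.22 to 0.104 for Esrrb (day after the pulse, between arms) and -0.363 to 0.053 for Tcl1 (change of the difference from 48 to 72 h).

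With the replicate number as a block 10, 8 and 7 factors were called between arms at 48, 72 and 96 h, and 0 of 120 member calls changed. Deviations of same-numbered libraries correlated at -0.06 to 0.112 between the 2 arms. Within an arm they correlated at 0.013 to 0.158 in CTL and -0.003 to 0.052 in Early. Counts of Tcl1 (2 to 8 in CTL at 96 h) limit its differences. Tcl1 did not pass the filter on low counts where each of the 2 control steps was fitted alone.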

Other observations

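Germ cell markers, which share Dppa3 with the pluripotency genes, were higher in Early gastruloids for 5 of 7 genes at 48 h, 4 at 72 h and 4 at 96 h, with 0, 0 and 1 lower, against 23.0%, 21.7% and 29.5% of all genes higher and 20.7%, 23.2% and 29.6% lower. Their summed level was low throughout, at 57.4 to 63.2 CPM in Early and 51.95 to 58.0 CPM in CTL libraries at 48 h. Dazl, an RNA-binding protein of germ cells, differed by 0.38 ± 0.13 at 48 h, 2.04 ± 0.16 at 72 h and 2.85 ± 0.24 at 96 h (edgeR, adjusted p = 0.0219, 1.12e-08 and 1.44e-08). Genes of the transient two-cell-like state of stem cell cultures did not pass the test at 48 h, and all 4 of those tested, of 7 listed, were higher in Early at 72 h and at 96 h (21.7% and 29.5% of all genes). Zscan4d, one of them, differed by 2.74 ± 0.46 at 72 h (adjusted p = 1.13e-04), while the list summed to 6.91 to 9.003 CPM in Early and 0.782 to 2.01 CPM in CTL libraries. The Zscan4 genes are near-identical copies, so their separate levels are uncertain.

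Markers of other tissues were at low levels at 48 h, where 23.0% of all genes were higher and 20.7% lower in Early. Trophoblast markers summed to 37.65 to 42.6 CPM in Early and 9.78 to 9.85 CPM in CTL libraries, with 2 of 4 tested higher and 1 lower. Fibroblast and feeder markers summed to 7.35 to 10.3 CPM in Early and 24.0 to 29.2 CPM in CTL libraries, with 4 of 4 tested lower. Endothelium and blood markers summed to 12.6 to 14.5 CPM in Early and 21.6 to 23.7 CPM in CTL libraries, with 1 of 7 tested higher and 3 lower. Of 3 neural and 5 mesoderm markers tested, 0 were called at 48 h.

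Within 100 kb of the factors lay 12 other tested genes, of which 5 were higher and 2 lower in Early at 48 h, against 23.0% and 20.7% of all genes. Ooep, 7.9 kb from Dppa5a, had mean levels of 27.5 CPM in Early and 16.6 CPM in CTL at 48 h (0.73, edgeR adjusted p = 0.00124), and Ddx43, 27.6 kb from Dppa5a, differed by 1.15 (adjusted p = 7.81e-06). Ap1m1, 61.6 kb from Klf2, differed by 1.01 (adjusted p = 3.09e-09), and Pibf1, 44.2 kb from Klf5, by 0.58 (adjusted p = 2.47e-05).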
